A study of Mus musculus with 43 samples.

Results

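The Hox cluster genes are the homeobox genes whose symbol is Hox followed by a cluster letter from a to d and a paralogue number. All 39 of them are listed in each of the 3 deposited expression tables of mouse oocytes and morulae, among 35815 gene symbols in the first table and 35842 in each of the others. The set was taken by symbol alone, whether or not a gene was expressed. It holds 11 genes of HoxA, 10 of HoxB, 9 of HoxC and 9 of HoxD. In GENCODE M21 on GRCm38 each cluster lies on 1 strand within 96.8 to 174 kb: HoxA on chromosome 6 (52155590 to 52260880, minus strand), HoxB on chromosome 11 (96194316 to 96368256, plus), HoxC on chromosome 15 (102921103 to 103036852, plus) and HoxD on chromosome 2 (74668310 to 74765142, plus).

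Hox proteins are DNA-binding transcription factors that give cells along the body axis of the embryo their position. Within a cluster the genes stand in the order in which they are switched on, from low-numbered genes used early and towards the head to high-numbered genes used late and towards the tail and limb tips, and genes with the same number in different clusters are related copies called paralogues. In cells that do not use them the clusters are a classical target of Polycomb, whose repressive complex 1 (PRC1) ubiquitinates histone H2A and whose repressive complex 2 methylates histone H3 at lysine 27. PCGF1 and PCGF6 are subunits of variant forms of PRC1, and MLL2 (gene Kmt2b) belongs to the Trithorax-related methyltransferases of histone H3 lysine 4, which act on the opposite side at such genes.

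The study compared full-grown oocytes and morulae with parts of this system removed, in 43 libraries of polyadenylated RNA. Oocytes with PRC1 labelled catalytic dead (PRC1-CD, 2 libraries) were set against their wild type (PRC1-WT, 2 libraries), with 10 pooled oocytes without zona pellucida in each library. Oocytes with Pcgf1/6 and Mll2 triple knockout (TKO, 3 libraries) and with Pcgf1/6 double knockout (DKO, 3 libraries) were set against wild type (WT, 3 libraries), and morulae with maternal triple knockout (matTKO, 10 libraries) and maternal double knockout (matDKO, 10 libraries) against wild-type morulae (WT, 10 libraries). The labels give no strain, age, driver of the deletions or number of oocytes or embryos for these 2 sets, do not state the paternal alleles of the morulae, and do not say which PRC1 genes carry the catalytic-dead change. The tissue label of PRC1-CD replicate 2 reads embryo, while its title and stage place it among the full-grown oocytes, where it is used here. Levels are given in RPKM for oocytes and in TPM for morulae. Both are scaled to transcript length, so levels can be compared between genes within a table.

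Between 10902 and 13086 genes per library reached a level of 1. The 10 oocyte markers, such as Zp3 and Gdf9, summed to between 10063 and 14234 RPKM in the oocyte libraries and to between 35.7 and 112 TPM in the morulae. Among the deleted genes, Pcgf1 averaged 12.2 RPKM in TKO and 12.3 RPKM in DKO oocytes against 1108 RPKM in WT oocytes, Pcgf6 averaged 72.2 RPKM in TKO and 57.1 RPKM in DKO against 154 RPKM in WT, and Kmt2b averaged 1.14 RPKM in TKO and 3.90 RPKM in DKO against 4.85 RPKM in WT. The RNA level of PRC1 genes does not check the catalytic-dead label. In morulae, 5 libraries stood apart, with a mean correlation to the other libraries of the table under 0.93: replicates 8 and 9 of matTKO and replicates 7, 8 and 9 of matDKO. The calls and differences in morulae are also given without them. The sequencing depth is unknown. Nothing in the labels says that replicates are separate animals, so the p-values cover the spread among the deposited libraries, and that spread may be technical.

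In wild-type oocytes 1 Hox gene was expressed. Hoxa7 (chromosome 6, 52214491 to 52221854), which acts in vertebral patterning, stood at 11.61 and 15.04 RPKM in the PRC1-WT libraries and at 11.93, 12.19 and 12.85 RPKM in the WT libraries of the knockout set. The other 38 genes stayed below a mean of 1 RPKM in both wild-type groups, and their highest mean was that of Hoxd13, with 0.430 RPKM in PRC1-WT and 0.370 RPKM in WT. A mean of at least 1 RPKM was reached by 9 of 39 Hox genes (23.1%) in PRC1-CD oocytes and by 1 of 39 (2.56%) in PRC1-WT oocytes, while 36.1% of all genes in the table reached it in PRC1-CD and 32.8% in PRC1-WT. In the knockout set, 5 genes (12.8%) reached it in TKO, 6 (15.4%) in DKO and 1 (2.56%) in WT oocytes, against 33.0%, 33.5% and 31.9% of all genes. In each morula group 4 genes (10.3%) reached 1 TPM, against 34.3% of all genes in matTKO, 34.0% in matDKO and 34.1% in WT. Hoxa7 was not one of the 4 in morulae: they were Hoxd8, Hoxd9, Hoxd10 and Hoxb13. Since these are bulk libraries, fewer cells with a transcript and less of it per cell cannot be told apart.

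The promoters of the genes with the largest PRC1-CD change in their cluster are shown because CpG-rich promoters are the known landing sites of variant PRC1 and of MLL2. The RefSeq table of promoters (GRCm38.p6, 250 bases before to 50 after the start) matched 22 of the 39 genes in 24 windows. It holds Hoxd1 for HoxD and Hoxa10, with 2 starts, for HoxA, and these are printed. Hoxb2 for HoxB and Hoxc13 for HoxC are named only. Hoxa7, the Hox gene expressed in wild-type oocytes, was added for comparison after its values were seen. The Hoxa7 window and the second Hoxa10 window lie inside the GENCODE spans of those genes, at other starts than the outermost GENCODE ones. All are written 5′ to 3′ on the gene's strand, and capitals mark CpG dinucleotides.
Hoxd1, chr2:74762730-74763029, plus strand: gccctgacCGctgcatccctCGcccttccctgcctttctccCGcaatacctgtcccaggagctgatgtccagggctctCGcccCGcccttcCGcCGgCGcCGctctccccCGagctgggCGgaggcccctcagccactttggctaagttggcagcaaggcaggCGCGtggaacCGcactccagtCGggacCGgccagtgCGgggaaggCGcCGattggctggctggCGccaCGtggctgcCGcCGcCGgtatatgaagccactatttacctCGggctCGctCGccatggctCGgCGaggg
Hoxa10, first start, chr6:52240805-52241104, minus strand: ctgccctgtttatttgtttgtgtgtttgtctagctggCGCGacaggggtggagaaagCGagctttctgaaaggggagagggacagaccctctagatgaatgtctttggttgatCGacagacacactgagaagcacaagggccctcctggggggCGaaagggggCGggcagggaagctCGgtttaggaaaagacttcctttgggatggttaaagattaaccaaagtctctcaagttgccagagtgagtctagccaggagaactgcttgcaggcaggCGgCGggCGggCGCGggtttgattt
Hoxa10, second start, chr6:52234890-52235189, minus strand: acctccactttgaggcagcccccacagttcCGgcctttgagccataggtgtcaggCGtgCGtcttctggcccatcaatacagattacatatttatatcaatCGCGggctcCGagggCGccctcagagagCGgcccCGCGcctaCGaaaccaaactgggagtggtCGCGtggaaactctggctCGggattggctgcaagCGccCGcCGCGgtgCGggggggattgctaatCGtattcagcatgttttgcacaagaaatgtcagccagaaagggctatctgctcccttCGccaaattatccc
Hoxa7, chr6:52218524-52218823, minus strand: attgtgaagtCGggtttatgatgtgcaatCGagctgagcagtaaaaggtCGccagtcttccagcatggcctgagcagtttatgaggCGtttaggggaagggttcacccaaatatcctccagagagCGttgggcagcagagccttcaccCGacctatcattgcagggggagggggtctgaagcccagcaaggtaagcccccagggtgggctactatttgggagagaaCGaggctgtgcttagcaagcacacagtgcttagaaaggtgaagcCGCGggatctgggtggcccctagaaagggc

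The Hoxd1 window held 29 CpG dinucleotides, more than 87.1% of the 32851 promoter windows of the table. The Hoxa10 windows held 12 and 21, and the Hoxa7 window held 9. Over the 24 Hox windows the count ran from 4 to 45 with a median of 14.5, against a median of 7 and quartiles of 3 and 20 over all windows. The other members with large oocyte changes were spread over this range, since Hoxd13 had 37, Hoxd9 had 20 and Hoxd8 had 6, while Hoxa13, whose mean stayed under 1 in every group, had 45. Among motifs searched on both strands, CACGTG, the E-box bound by the MGA and MAX partners of PCGF6, stood in the windows of 5 of the 22 matched genes (Hoxd1, Hoxd4, Hoxd10, Hoxd11 and Hoxd13) and in 7.15% of all windows. TCCCGCC, an E2F motif, stood in 3 of the 22 (Hoxa13, Hoxd11 and Hoxd13) and in 11.3% of all windows. The TATA motif TATAAA stood in 4 of the 22 (Hoxa10, Hoxb8, Hoxd4 and Hoxd13) and in 13.6% of all windows. Each match is a description of these letters and not a measured site.

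The comparison of PRC1-CD with PRC1-WT oocytes asks which genes depend on the catalytic activity of PRC1. All 9 Hox genes tested were higher in PRC1-CD and 0 were lower, among them Hoxd1, Hoxd8, Hoxd13, Hoxd9, Hoxa10, Hoxc13, Hoxb2 and Hoxa7. Over the 13376 genes tested, 22.9% were called by limma, and 17.3% were called higher. Of the 9, 8 entered the test only through their level in PRC1-CD, so they had to differ, and nothing is read from that count. Hoxa7 was the member that reached 1 RPKM in PRC1-WT. The other 30 members stayed under the filter, and 4 of them (Hoxb5, Hoxb8, Hoxc5 and Hoxc12) were listed at 0 in all 4 libraries.

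HoxD had the highest levels apart from Hoxa7. Hoxd1 (chromosome 2, 74762980 to 74765142), which shapes the wiring of pain-sensing neurons in the mouse, stood at 8.49 and 7.37 RPKM in PRC1-CD against 0.12 and 0.20 RPKM in PRC1-WT. Its log2(RPKM + 1) was higher by 2.94 ± 0.18 (SE, limma adjusted p = 0.000156, n = 2 each). Hoxd13 (74668310 to 74671599), the last HoxD gene, which forms digits and the genital tract, stood at 7.79 and 7.38 RPKM in PRC1-CD against 0.39 and 0.47 RPKM in PRC1-WT, a log2 change of 2.59 ± 0.17 (adjusted p = 0.000184). Hoxd8 had 7.19 and 6.47 RPKM in PRC1-CD against 0.03 and 0.30 RPKM in PRC1-WT (2.76 ± 0.19, adjusted p = 0.000206). In each of these genes both PRC1-CD libraries lay above both PRC1-WT libraries, and the gap was wider than the range within either group. All of these genes passed the filter only through PRC1-CD, so nothing is read from that separation. Hoxd9, which acts with its paralogues in the lumbar region and the limb, had 3.27 and 4.44 RPKM in PRC1-CD against 0.02 and 0.16 RPKM in PRC1-WT (2.15 ± 0.19, adjusted p = 0.000517). The genes between these did not follow in order. Hoxd3 and Hoxd4, between Hoxd1 and Hoxd8, averaged 0.065 and 0.040 RPKM in PRC1-CD and were listed at 0 in PRC1-WT. Hoxd11 and Hoxd12, between Hoxd10 and Hoxd13, averaged 0.180 and 0.105 RPKM in PRC1-CD against 0.050 and 0.025 RPKM in PRC1-WT.

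In HoxA, Hoxa10 (chromosome 6, 52231197 to 52240854), needed for implantation in the uterus, stood at 2.03 and 2.71 RPKM in PRC1-CD against 0.08 and 0.11 RPKM in PRC1-WT, a log2 change of 1.61 ± 0.18 (limma adjusted p = 0.00102). Hoxa7 was already expressed in PRC1-WT and stood at 23.09 and 40.40 RPKM in PRC1-CD against 11.61 and 15.04 RPKM in PRC1-WT (1.15 ± 0.27, adjusted p = 0.0232). The libraries of Hoxa7 did not overlap, but its call was lost without PRC1-WT replicate 1 (adjusted p = 0.172) or 2 (0.0962), without PRC1-CD replicate 2 (log2 change 0.76, adjusted p = 0.160) and with no filter on low values (0.103). Hoxb2, which acts in the hindbrain, averaged 1.52 RPKM in PRC1-CD against 0.030 RPKM in PRC1-WT (1.28 ± 0.18, adjusted p = 0.00250). Hoxc13, needed for hair and nails, averaged 1.93 RPKM in PRC1-CD against 0.175 RPKM in PRC1-WT (1.31 ± 0.18, adjusted p = 0.00246). The size of such changes depends on the pseudocount: with 0.1 in place of 1 they were 4.96 for Hoxd1, 4.92 for Hoxd8, 4.47 for Hoxd9, 3.66 for Hoxb2 and 3.65 for Hoxa10, all still called. After quantile normalisation the changes of Hoxb2 and Hoxc13 were smaller, 0.83 and 0.82, and both stayed called.

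**Figure D1:**
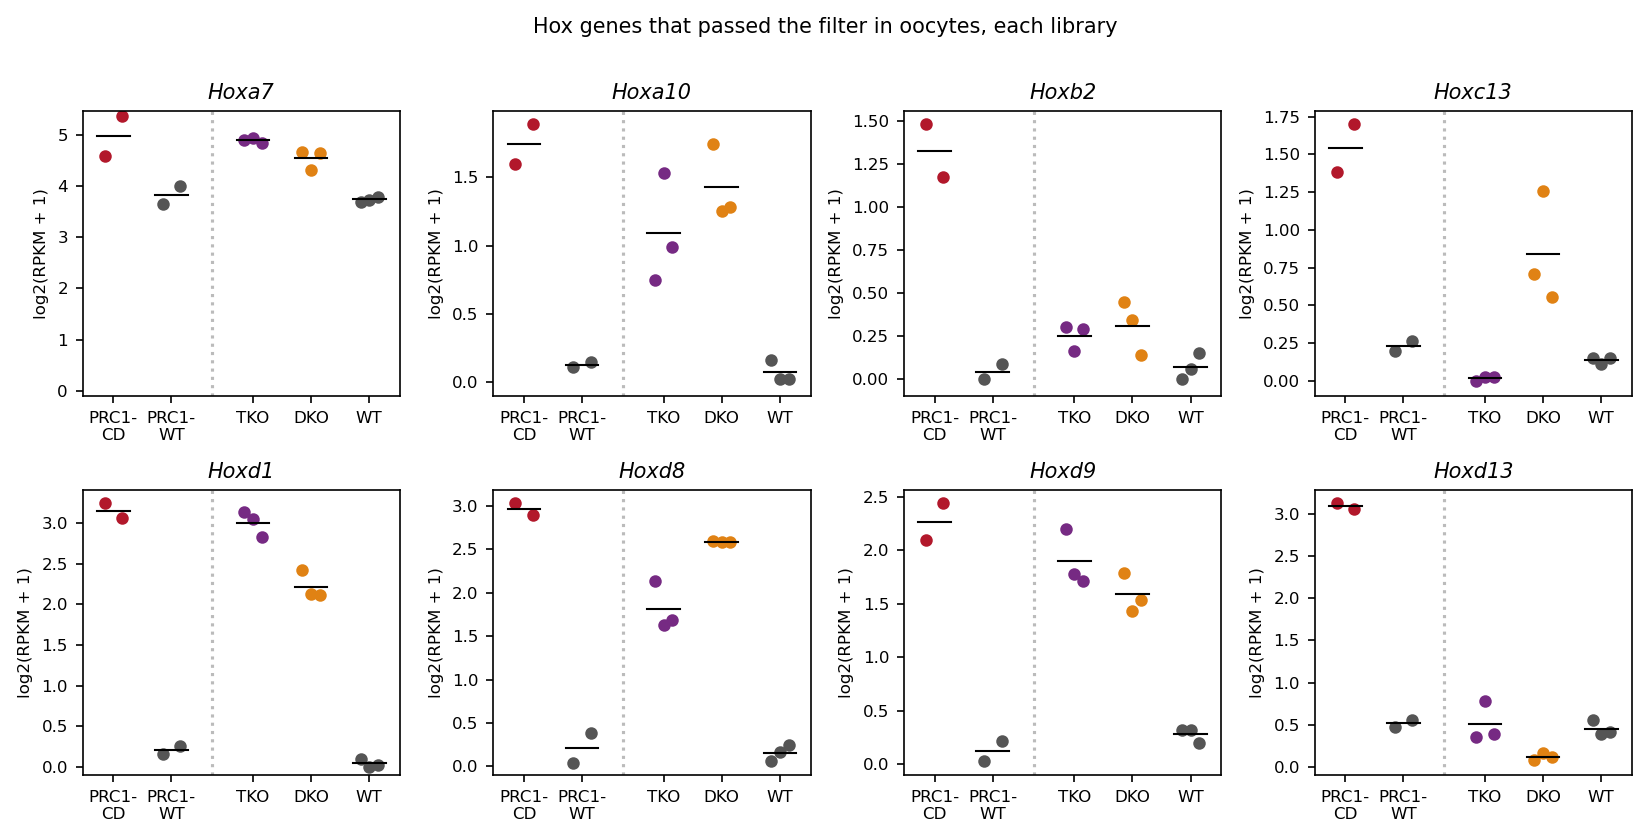
log2(RPKM + 1) of 8 Hox genes that passed the filter in oocytes, with 1 point per library and a line at the group mean, for PRC1-CD and PRC1-WT left of the dotted line and TKO, DKO and WT right of it. Both PRC1-CD points lie above both PRC1-WT points in every panel, and Hoxd13, Hoxc13 and Hoxb2 show levels of at least 1 RPKM on average in PRC1-CD alone among these 5 groups.

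Markers of other ovarian cells moved with the PRC1-CD result. The 12 granulosa and cumulus markers summed to between 59.4 and 65.9 RPKM in PRC1-CD against 29.6 to 34.4 RPKM in PRC1-WT, and 4 of the 5 tested were higher, 3 of which passed the filter only through PRC1-CD, led by Fshr with a mean of 15.3 RPKM in PRC1-CD against 0.550 RPKM in PRC1-WT. Amh was listed at 0 in both PRC1-CD libraries and Foxl2 in both PRC1-WT libraries. The 10 ovarian stroma and blood markers summed to between 13.03 and 13.9 RPKM in PRC1-CD against 9.37 to 11.1 RPKM in PRC1-WT. Col1a2, Hbb-bs and Hba-a1 were listed at 0 in both groups, and Col1a1, Col3a1 and Lum in PRC1-WT alone. Of 2 tested, 1 was higher in PRC1-CD and 0 were lower. The 10 oocyte markers summed to between 10063 and 11975 RPKM in PRC1-CD against 10103 to 12817 RPKM in PRC1-WT, with 0 of 10 called by limma. The 10 morula and trophectoderm markers summed to between 1725 and 1784 RPKM in PRC1-CD against 923 to 1605 RPKM in PRC1-WT, with 2 higher and 1 lower of 6 tested. Of the 2, Tead4 passed the filter only through PRC1-CD. Over all genes tested 22.9% were called and 17.3% were called higher. The part of these markers in the Hox result was not tested.

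Below the filter, Hox levels in PRC1-CD ran up to the threshold without a gap. The members just inside it were Hoxb2 at 1.52 and Hoxc13 at 1.93 RPKM, and those just outside were Hoxb1 at 0.940, Hoxb7 at 0.915, Hoxd10 at 0.905 and Hoxa4 at 0.825 RPKM. Over the 30 members below the filter the highest mean was 0.940 RPKM in PRC1-CD and 0.185 RPKM, for Hoxb4, in PRC1-WT. Of all 39 members, the mean log2(RPKM + 1) was higher in PRC1-CD in 34, equal in 4 and lower in 1, Hoxb3 (by 0.03), with a median difference of 0.30. With no filter on low values, which does not select members by their PRC1-CD level beyond a value above 0 in some library, 12 of the 35 members tested were called higher and 0 lower, where 7.74% of all 26314 genes were called higher. That test added Hoxa9, Hoxb7, Hoxb13 and Hoxd10 and lost Hoxa7. With the filter set at 0.5 in place of 1, 15 of 16 members were called, all higher, where 2710 of 15470 genes tested were higher. Of the 16, Hoxa7 alone reached 0.5 RPKM in PRC1-WT, so the others had to differ and nothing is read from that count. Fits without 1 PRC1 library leave 1 in its group, so no count of calls is read from them. The members' median log2 change was 1.615 with all libraries, over 9 members tested. It was 1.54 and 1.45 without PRC1-CD replicates 1 and 2, over 13 and 10 members tested. It was 1.595 and 1.63 without PRC1-WT replicates 1 and 2. Of the 9, all but Hoxa7 passed the filter only through PRC1-CD, and the members tested changed with its libraries. Nothing is thus read from these medians.

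Taken by cluster, the HoxD genes summed to 27.7 and 27.25 RPKM in PRC1-CD against 0.62 and 1.22 RPKM in PRC1-WT. The HoxA genes other than Hoxa7 summed to 5.73 and 10.6 RPKM in PRC1-CD against 0.740 and 0.810 RPKM in PRC1-WT. The HoxB genes summed to 5.0 and 5.08 RPKM in PRC1-CD against 0.310 and 0.580 RPKM in PRC1-WT, and the HoxC genes to 2.15 and 3.21 RPKM in PRC1-CD against 0.230 and 0.220 RPKM in PRC1-WT. All 4 clusters were thus higher in both PRC1-CD libraries, and HoxC stayed lowest. By position, the genes at or above 1 RPKM in PRC1-CD were 3 of the 8 anterior genes (paralogues 1 to 3), 2 of the 15 central genes (4 to 8) and 4 of the 16 posterior genes (9 to 13). No member at position 3, 4, 5, 6, 11 or 12 reached a mean of 1 RPKM in any oocyte group.

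**Figure D2:**
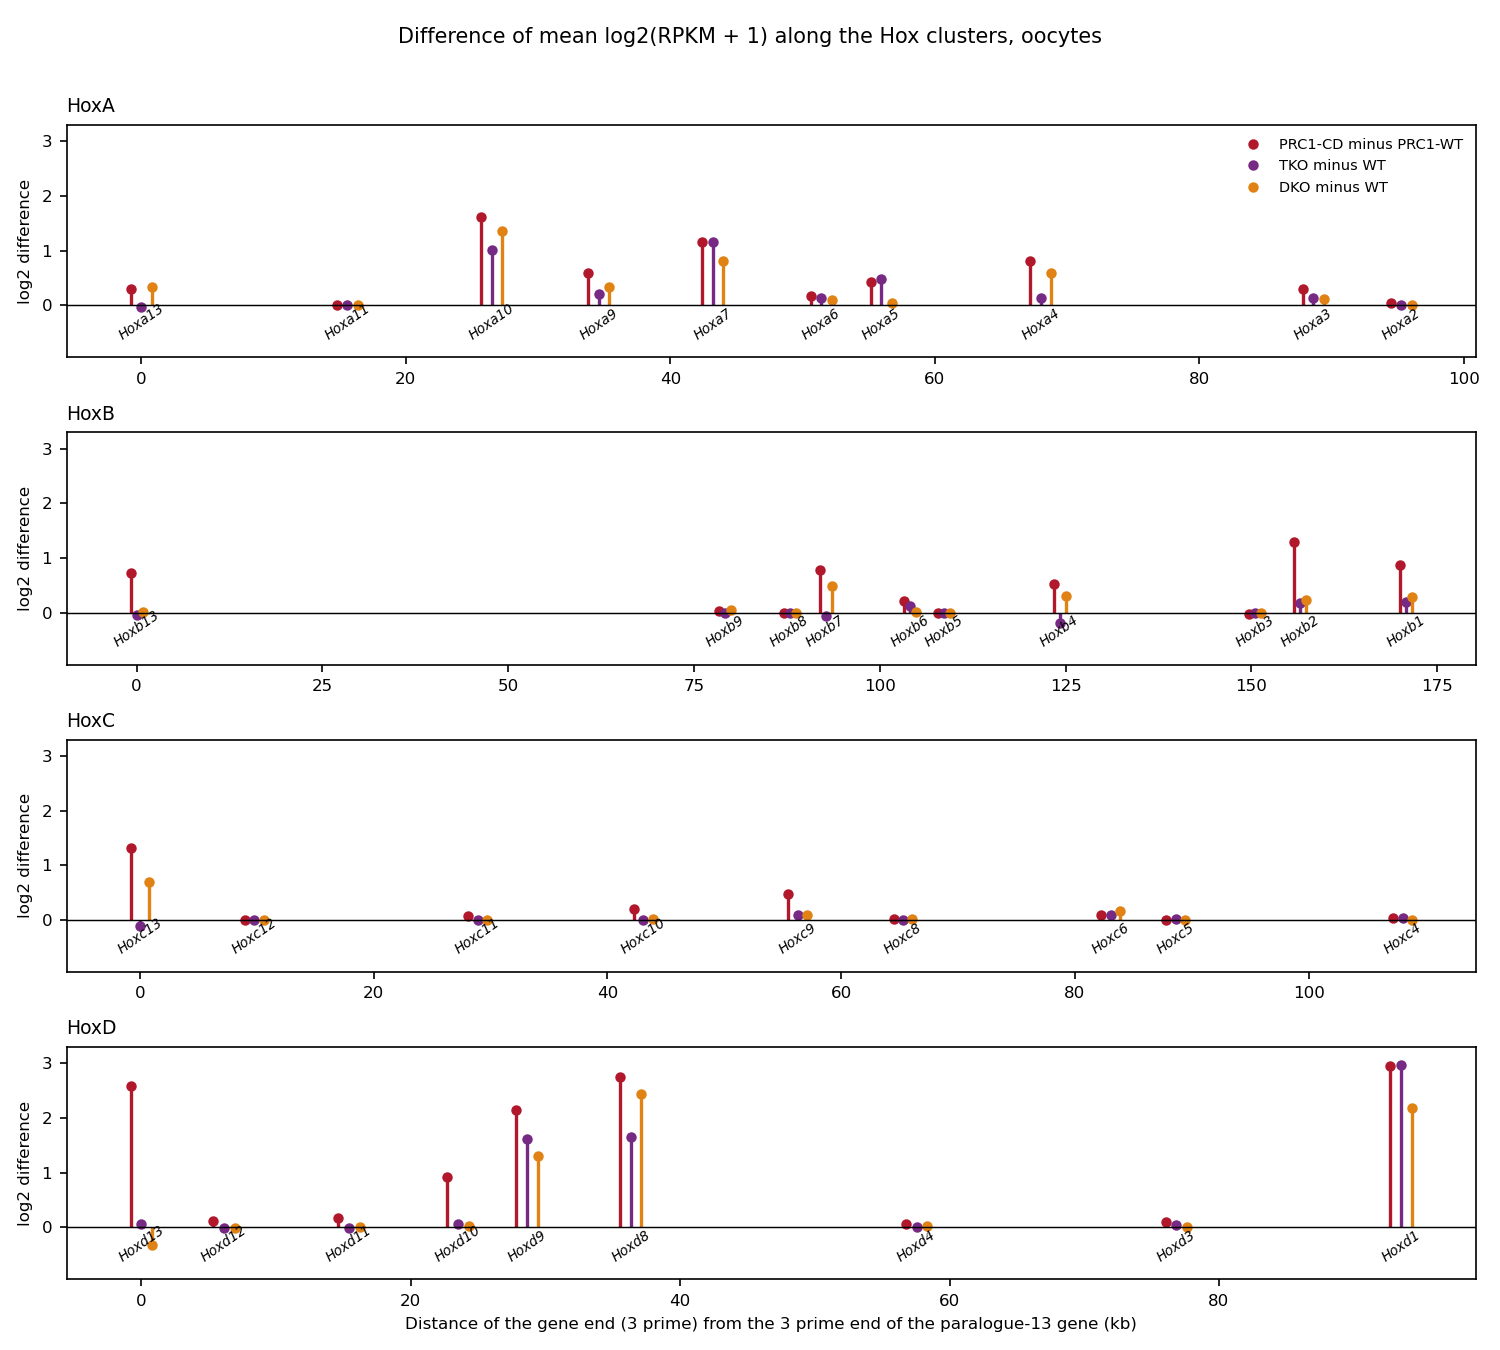
Difference of mean log2(RPKM + 1) for the Hox genes described along each cluster, placed by the distance in kb of the gene's 3′ end from that of the paralogue-13 gene, for PRC1-CD minus PRC1-WT, TKO minus WT and DKO minus WT. For PRC1-CD the largest values stand at Hoxd1, Hoxd8, Hoxd9 and Hoxd13 in HoxD. Hoxa10 and Hoxa7 in HoxA, Hoxc13 (1.31) in HoxC and Hoxb2 (1.28) in HoxB follow. In HoxD, Hoxd3, Hoxd4, Hoxd11 and Hoxd12 lie near 0, while Hoxd10 stands at 0.92 for PRC1-CD.

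The comparison of DKO with WT oocytes asks which genes need the PCGF1 and PCGF6 forms of PRC1. All 6 Hox genes tested were higher in DKO and 0 were lower, while 28.8% of the 12873 genes tested were called and 17.5% were called higher. Again 5 of the 6 passed the filter only through a mutant group, so nothing is read from that count. Hoxd8 stood at 5.07, 5.0 and 4.98 RPKM in DKO against 0.04, 0.12 and 0.19 RPKM in WT, a log2 change of 2.43 ± 0.14 (limma adjusted p = 3.34e-06, n = 3 each). Hoxd1 stood at 4.36, 3.36 and 3.34 RPKM in DKO against 0.07, 0 and 0.02 RPKM in WT (2.18 ± 0.13, adjusted p = 3.22e-06). Hoxd9 had 2.45, 1.71 and 1.91 RPKM in DKO against 0.25, 0.25 and 0.15 RPKM in WT (1.31 ± 0.15, adjusted p = 0.000206). The DKO and WT libraries did not overlap in any of the 6 genes. Since 5 of them passed the filter only through a mutant group, nothing is read from that, and the share over all genes was not computed. Hoxa10 had 2.35, 1.39 and 1.44 RPKM in DKO against 0.12, 0.02 and 0.02 RPKM in WT (1.36 ± 0.21, adjusted p = 0.000959). Hoxa7, the member that passed the filter in WT, had 24.46, 18.71 and 23.96 RPKM in DKO against 11.93, 12.19 and 12.85 RPKM in WT (0.80 ± 0.10, adjusted p = 0.000341), and it was called in all 16 alternatives, with an adjusted p of at most 0.00238.

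With no filter on low values, 12 of the 33 members tested were called higher in DKO and 0 lower, where 8.87% of all genes were called higher. That test added Hoxa4, Hoxa9, Hoxa13, Hoxb1, Hoxb7 and Hoxc13, all with a mean under 1 RPKM. Hoxc13 was the nearest to the threshold, at 0.63, 1.39 and 0.47 RPKM in DKO against 0.11, 0.08 and 0.11 RPKM in WT. Hoxd13 lay on the other side. It stood at 0.06, 0.12 and 0.08 RPKM in DKO against 0.47, 0.31 and 0.33 RPKM in WT, lower in every DKO library, and was not called in that test (limma adjusted p = 0.0865). Over all 39 members the mean log2 level was higher in DKO in 27, equal in 9 and lower in 3.

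The PRC1-CD and DKO comparisons share no libraries, and their tables were normalised separately, so their values are only set side by side. All 6 genes called higher in DKO were also among the 9 called higher in PRC1-CD, 100% of the DKO list and 66.7% of the PRC1-CD list. The 6 were the only members that passed the filter in both tables, and all were called in both, so nothing is read from this overlap. Over the 12428 genes tested in both tables, 1024 were called higher in both, 47.2% of the genes higher in DKO and 59.3% of those higher in PRC1-CD. Without the filter 32 members were tested in both tables and the lists held 12 genes each and shared 8, which are 66.7% of either list. Over all genes the shared ones were 33.4% of the DKO list and 39.9% of the PRC1-CD list. Of the 32 members 12 were higher in PRC1-CD, but of all 24954 genes tested in both tables only 2008 were. A list that holds more of its genes overlaps more by chance, so these shares cannot be compared. The other 3 genes called in PRC1-CD, Hoxd13, Hoxb2 and Hoxc13, lay below the filter in the knockout table and were not tested there. They averaged 0.0867, 0.243 and 0.830 RPKM in DKO. Without the filter Hoxc13 was called higher in DKO than in WT (0.70, limma adjusted p = 0.0189), while Hoxb2 (0.24, adjusted p = 0.0899) and Hoxd13 did not pass the threshold. Summed over HoxD, PRC1-CD libraries reached 27.25 to 27.7 RPKM, and DKO libraries 10.25 to 12.1 RPKM against 0.72 to 0.97 RPKM in WT. Summed over HoxB, DKO libraries ranged from 0.780 to 2.15 RPKM against 0.220 to 0.550 RPKM in WT.

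The comparison of TKO with WT oocytes adds the loss of MLL2. All 6 Hox genes tested were higher in TKO and 0 were lower, while 51.3% of the genes tested were called and 31.2% were called higher. As before, 5 of the 6 passed the filter only through a mutant group, so nothing is read from that count, which was 5 in 11 of the 16 alternatives. With no filter on low values 6 of 33 members were called higher and 0 lower, where 15.4% of all genes were called higher, so the members' share was near that of all genes. Over all 39 members the mean log2 level was higher in TKO than in WT in 21, equal in 10 and lower in 8, with a median difference of 0.03. The comparison uses the same WT libraries as that of DKO. Hoxd1 stood at 7.81, 7.32 and 6.11 RPKM in TKO, a log2 change of 2.97 ± 0.13 over WT (limma adjusted p = 2.19e-07). Hoxd8 had 3.4, 2.09 and 2.21 RPKM in TKO (1.66 ± 0.14, adjusted p = 1.51e-05), and Hoxd9 had 3.59, 2.44 and 2.28 RPKM (1.62 ± 0.15, adjusted p = 2.61e-05). Hoxa7 had 28.77, 29.48 and 27.72 RPKM in TKO (1.15 ± 0.10, adjusted p = 1.71e-05). Every TKO library lay above every WT library in these 4 genes. Of the 4, Hoxa7 alone passed the filter in WT, so for the others nothing is read from that separation. For Hoxa7 nothing is read from it either, since the share of all genes separated in this way was not computed. Hoxa10 was more uneven, with 0.68, 1.90 and 0.99 RPKM in TKO (1.02 ± 0.21, adjusted p = 0.00239). Among the members that stayed below the filter, Hoxc13 had 0, 0.02 and 0.02 RPKM in TKO against 0.11, 0.08 and 0.11 RPKM in WT, and Hoxb7 was listed at 0 in all 3 TKO libraries.

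**Figure D3:**
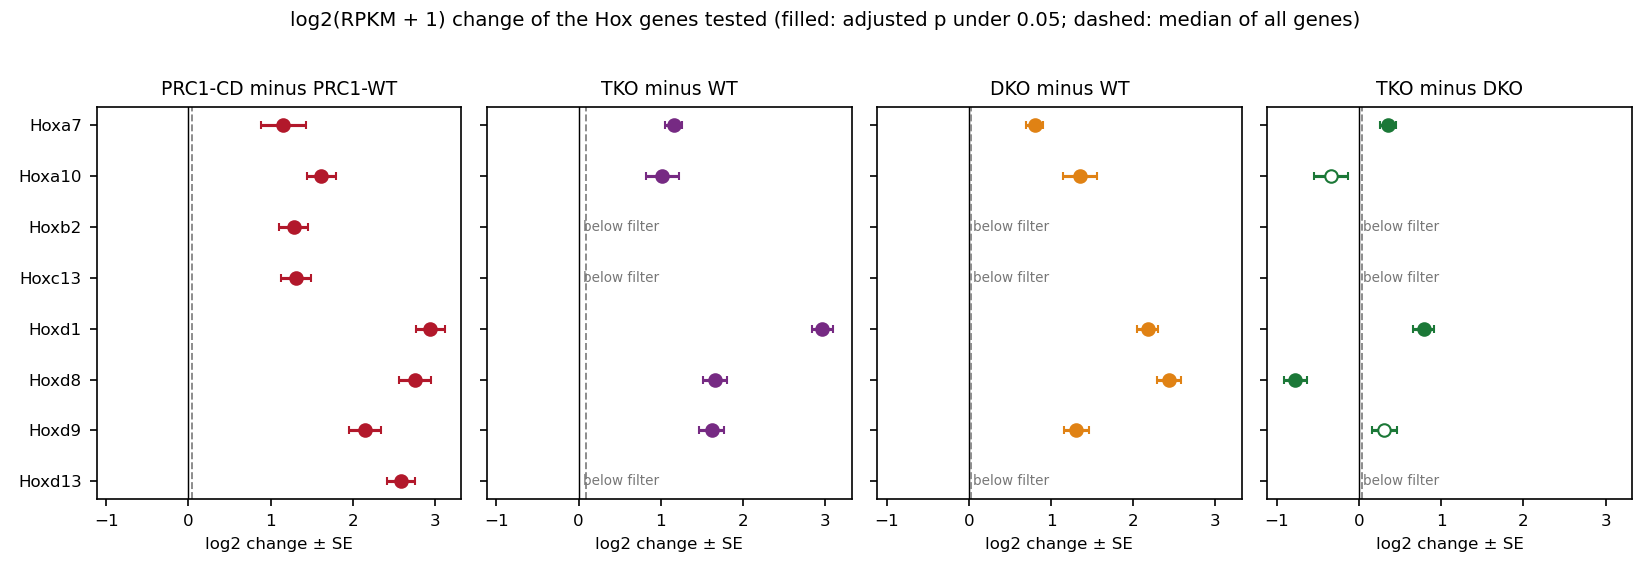
log2(RPKM + 1) change with its SE for 8 of the Hox genes tested in PRC1-CD minus PRC1-WT, TKO minus WT, DKO minus WT and TKO minus DKO, where filled points have a limma adjusted p under 0.05 and the dashed line is the median of all genes tested. All points of the first 3 panels lie right of 0, and in the last panel Hoxd1 and Hoxa7 lie right of 0 while Hoxd8 lies left of it.

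TKO against DKO oocytes asks what the loss of MLL2 changes where PCGF1 and PCGF6 are already missing. The Hox genes split: of the 6 tested, 4 were called, among them Hoxd1 and Hoxa7 higher in TKO and Hoxd8 lower, and Hoxd9 and Hoxa10 did not pass the threshold. Over all genes tested 48.6% were called, 26.8% higher and 21.8% lower, and 4 of 6 Hox genes is little above that share. The groups use the libraries listed above, and the share of all genes whose libraries did not overlap was not computed. Hoxd1 was higher in TKO by 0.79 ± 0.13 (limma adjusted p = 0.000784), with all 3 TKO libraries (6.11 to 7.81 RPKM) above all 3 DKO libraries (3.34 to 4.36 RPKM). Hoxd8 fell by 0.77 ± 0.14 on the log2 scale (adjusted p = 0.00167), with TKO libraries at 2.09 to 3.4 RPKM below DKO libraries at 4.98 to 5.07 RPKM. Both genes lie in HoxD, where their 3′ ends are 93.5 kb (Hoxd1) and 36.3 kb (Hoxd8) from that of Hoxd13.

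Hoxa7 was higher in TKO than in DKO by 0.35 ± 0.10 (limma adjusted p = 0.0163). Its libraries did not overlap, and without DKO replicate 2 the change was 0.23 (adjusted p = 0.0502). Hoxd9 differed by 0.31 ± 0.15 (adjusted p = 0.118), and by 0.16 without TKO replicate 1. Hoxa10 differed by -0.34 ± 0.21 (adjusted p = 0.198). Without TKO replicate 2 the Hoxa10 difference was -0.56 and was called (adjusted p = 0.0235), and without TKO replicate 1 or DKO replicate 1 it was -0.16 and -0.18.

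With no filter on low values, 9 of 33 members were called between TKO and DKO, where 23.2% of all genes were: Hoxd1, Hoxa7 and Hoxd13 higher in TKO, and Hoxd8, Hoxc13, Hoxb7, Hoxb4, Hoxa4 and Hoxa13 lower. Apart from Hoxd1, Hoxa7 and Hoxd8 these are genes under 1 RPKM. Hoxc13 averaged 0.0133 RPKM in TKO against 0.830 RPKM in DKO, a log2 change of -0.82 ± 0.15 (limma adjusted p = 0.00565). Hoxb7 was listed at 0 in TKO, against 0.487 RPKM on average in DKO. Hoxa4, at 0.143 RPKM in TKO against 0.573 RPKM in DKO, changed by -0.46 ± 0.09 (adjusted p = 0.00724). Hoxd13 averaged 0.437 RPKM in TKO, 0.0867 RPKM in DKO and 0.370 RPKM in WT. Over all 39 members the mean log2 level was higher in TKO than in DKO in 13, equal in 7 and lower in 19. Without DKO replicate 2, and with the filter, 2 members were called in place of 4.

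Markers of other cells moved in the knockout set as well. The granulosa and cumulus markers summed to between 32.9 and 37.4 RPKM in TKO, 24.98 and 28.9 RPKM in DKO and 28.6 and 31.95 RPKM in WT. Fshr averaged 6.41 RPKM in TKO, 0.203 RPKM in DKO and 0.477 RPKM in WT. Vim was listed at 0 in TKO, Foxl2 in DKO, and Amh and Foxl2 in WT. Of the 5 granulosa markers tested, 3 were higher and 1 lower in TKO than in WT, where 51.3% of all genes were called. In DKO against WT 2 were higher and 1 lower, where 28.8% were called. In TKO against DKO 1 was higher and 0 lower, where 48.6% were called. Fshr, Inha and Ptgs2 passed the filter only through a mutant group, and they gave 2 of the 3 higher in TKO and 1 of the 2 higher in DKO against WT. The stroma and blood markers summed to between 11.5 and 16.1 RPKM in TKO, 6.19 and 8.32 RPKM in DKO and 9.39 and 10.7 RPKM in WT. Of 2 tested, 1 was higher in TKO than in WT, 1 was lower in DKO than in WT and 2 were higher in TKO than in DKO. The morula and trophectoderm markers summed to between 1280 and 1874 RPKM in TKO, 2629 and 2926 RPKM in DKO and 1198 and 1602 RPKM in WT, with 3 higher and 1 lower of 5 tested in TKO and in DKO against WT. Of these, Krt8 was higher in both and passed the filter only through a mutant group. The oocyte markers gave 0 higher and 3 lower of 10 in TKO against WT, and 1 higher and 2 lower in DKO against WT. The same shares of all genes called stand beside these counts. The part of these markers in the Hox result was not tested. The RNA-seq kit does not mark the strand, and some Hox genes overlap antisense transcripts in their exons: Hoxa7 shares 20.4% of its exon bases with Hoxaas3 and Hoxb2 shares 27.3% with Hoxb3os. Reads in these stretches cannot be told apart. For Hoxd1, Hoxd8, Hoxd9, Hoxd13, Hoxa10 and Hoxc13 the annotation lists no exon shared with another gene.

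Genes inside or near the clusters form a list of 42, of which 37 are in the tables. Of 19 tested, 7 were higher and 1 was lower in PRC1-CD than in PRC1-WT, where 17.3% of all genes tested were higher, and the list's median log2 change was 0.04, as was that of all genes. Of the 7, 4 passed the filter only through PRC1-CD and had to differ, and of the 15 that passed it in PRC1-WT 3 were higher and 1 lower. Haglr and Evx2 are among those 4, and their values are a description. Haglr, a long noncoding RNA of HoxD beside Hoxd1, averaged 2.11 RPKM in PRC1-CD against 0.0350 RPKM in PRC1-WT (1.56 ± 0.22, limma adjusted p = 0.00289). Evx2, the homeobox gene next to Hoxd13, averaged 1.02 RPKM in PRC1-CD against 0.00500 RPKM in PRC1-WT (1.01 ± 0.15, adjusted p = 0.00378). Flanking genes outside the clusters also moved, with Atp5g3, a subunit of ATP synthase on the HoxD chromosome but well outside the cluster (73908447 to 73911326), higher by 1.43 ± 0.17 and Smug1, a DNA repair glycosylase on the HoxC chromosome (103153290 to 103167092), lower by a log2 change of -1.77 ± 0.18.

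In DKO against WT, 3 of 17 in the same list were higher and 2 lower, where 17.5% of all genes were higher, with a median of 0.01 beside 0.03 for all genes. Haglr, which passed the filter only through the mutant groups, averaged 1.45 RPKM in DKO against 0.0133 RPKM in WT (1.24 ± 0.19, limma adjusted p = 0.000964), while Evx2 averaged 0.00333 RPKM in DKO and 0.0167 RPKM in WT and was not tested. In TKO against WT, 8 of 17 were higher and 1 was lower, where 31.2% of all genes were higher, with a median of 0.20 beside 0.09 for all genes, and Haglr averaged 1.20 RPKM in TKO (1.10 ± 0.19, adjusted p = 0.000916). In TKO against DKO, 7 of 17 were higher and 1 was lower, where 26.8% of all genes were higher and 21.8% lower, with a median of 0.15 beside 0.04 for all genes. Evx1, the homeobox gene beyond Hoxa13, was higher in TKO by 0.82 ± 0.14 (adjusted p = 0.000948), at 6.65 RPKM in TKO against 3.32 RPKM in DKO.

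Hox proteins bind DNA together with TALE homeodomain partners, the PBX, MEIS and PKNOX families. Of the 9 partners, 6 were tested in the PRC1-CD table and 1 was higher: Meis1, at 1.74 RPKM in PRC1-CD against 0.140 RPKM in PRC1-WT (1.27 ± 0.16, limma adjusted p = 0.00170), the partner that passed the filter only through PRC1-CD. Over all genes tested 17.3% were higher in PRC1-CD. In DKO against WT 0 of 4 were called by limma, where 28.8% of all genes were. In TKO against WT and against DKO, Pbx2 and Meis2 were higher and Pbx3 was lower, among 4 tested. Over all genes 51.3% were called in TKO against WT and 48.6% in TKO against DKO. The list's medians were 0.04 in PRC1-CD against PRC1-WT, 0.04 in DKO against WT, 0.21 in TKO against WT and 0.14 in TKO against DKO, and those of all genes were 0.04, 0.03, 0.09 and 0.04.

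Retinoic acid, made by ALDH1A enzymes and sensed by RAR and RXR receptors, is a known inducer of anterior Hox genes, and it forms a list with other upstream Hox factors. Of the 22 genes, 8 were tested in the PRC1-CD table, where 5 were higher and 0 lower. Their median log2 change was 1.19 beside 0.04 for all genes. They were Rarb (2.05 ± 0.20), Crabp1 (1.61 ± 0.21), Crabp2 (1.54 ± 0.24), Aldh1a3 (1.29 ± 0.22) and Aldh1a2 (1.08 ± 0.21). The median of 1.19 includes Rarb, Crabp1 and Aldh1a3, so nothing is read from it. These 3 passed the filter only through PRC1-CD and had to differ. Of the 5 that passed it in PRC1-WT 2 were higher, where 17.3% of all genes tested were. In DKO against WT 5 of 7 were higher and 0 lower, where 17.5% of all genes tested were higher, with a median of 0.47 beside 0.03. They were Crabp2, Rara, Rxra, Aldh1a2 and Gmnn, of which Rara passed the filter only through a mutant group. The 7 also include Crabp1 and Rarb, which passed the filter in the same way and were not called. In TKO against WT, Rara and Rxra were higher and Aldh1a2 and Gmnn lower, among 7 tested with a median of -0.16 beside 0.09 for all genes, of which 31.2% were higher. In TKO against DKO, Rxra was higher and Crabp2, Aldh1a2 and Gmnn were lower, with a median of -0.39 beside 0.04. Over all genes 26.8% were higher and 21.8% lower in TKO than in DKO. The related ParaHox genes hold 1 tested member, Pdx1, which was not called in PRC1-CD or DKO and was lower in TKO by a log2 change of -0.31 ± 0.11 against WT (limma adjusted p = 0.0395) and -0.32 ± 0.11 against DKO (adjusted p = 0.0379).

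In morulae the set of expressed Hox genes was another one. The 4 genes above 1 TPM on average were the same in all 3 groups, and all passed the filter in WT. By limma 0 of the 4 were called in matTKO against WT, in matDKO against WT or in matTKO against matDKO, where 0.567%, 1.74% and 0.0689% of the 13056 genes tested were called. At an unadjusted p under 0.05 the counts were 0, 0 and 1. Hoxd8 had the highest level, with a lowest, median and highest value of 0.51, 7.96 and 20.75 TPM in matTKO, 0.19, 6.51 and 12.58 TPM in matDKO and 1.87, 7.44 and 12.00 TPM in WT. Its log2 difference was -0.08 ± 0.45 in matTKO and -0.40 ± 0.45 in matDKO against WT (limma adjusted p = 0.954 and 0.671, n = 10 each). Hoxd9 had 0.15, 2.87 and 5.55 TPM in matTKO, 0, 2.39 and 4.21 TPM in matDKO and 0.22, 2.65 and 5.76 TPM in WT, and differed from WT by -0.27 ± 0.31 in matTKO and -0.25 ± 0.31 in matDKO (adjusted p = 0.759 and 0.706). The groups overlapped widely in both genes.

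Hoxd10, which acts in motor neurons of the lumbar cord, was the member with the largest difference. Its lowest, median and highest values were 0, 0.590 and 6.11 TPM in matTKO, 0, 3.56 and 11.45 TPM in matDKO and 0, 1.51 and 2.59 TPM in WT. It was higher in matDKO than in WT by 0.77 ± 0.38, which did not pass the threshold (limma p = 0.0502, adjusted p = 0.288), and lower in matTKO than in matDKO by a log2 difference of -0.85 ± 0.38 (p = 0.0309, adjusted p = 0.687). Hoxb13, a gene of the tail tip and the prostate, had 0, 1.0 and 2.42 TPM in matTKO, 0, 0.755 and 4.95 TPM in matDKO and 0.06, 1.21 and 3.11 TPM in WT. Its differences were within 0.09 in all 3 comparisons, with SEs of 0.32. The SEs of the 4 genes ran from 0.31 to 0.45 on the log2 scale, and differences of that order were not detectable with these libraries.

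**Figure D4:**
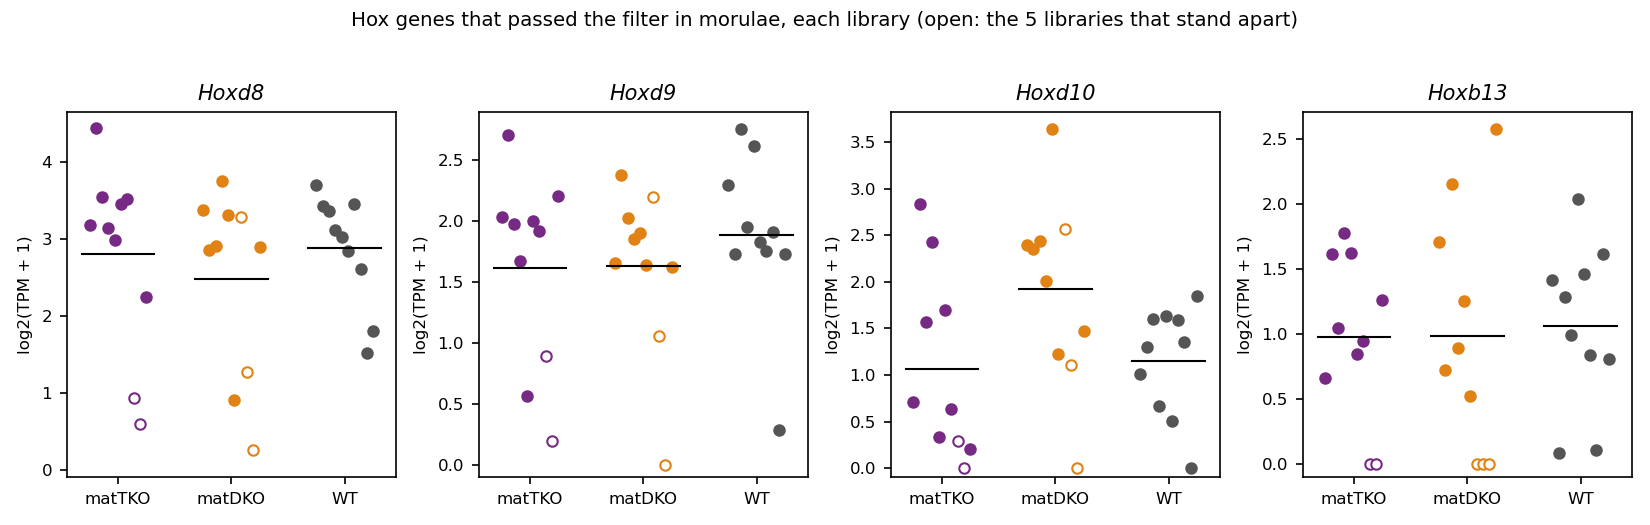
log2(TPM + 1) of the 4 Hox genes that passed the filter in morulae, with 1 point per library and a line at the mean of the 10 libraries of matTKO, matDKO and WT, and open points for the 5 libraries that stand apart. The groups overlap in all 4 panels, the open points are at 0 in the Hoxb13 panel, and in the Hoxd8 panel all of them except matDKO replicate 7 lie below the lowest WT point.

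Of the 5 libraries that stand apart, 4 were low in Hoxd8. It stood at 0.91 and 0.51 TPM in replicates 8 and 9 of matTKO and at 1.42 and 0.19 TPM in replicates 8 and 9 of matDKO, below the lowest WT library at 1.87 TPM. Replicate 6 of matDKO, which is not among the 5, was also below that library, at 0.87 TPM. Replicate 7 of matDKO, which is among the 5, had 8.8 TPM, above the WT median. Hoxb13 was listed at 0 in all 5. Over HoxD as a whole the lowest sums were 2.46 TPM in matTKO, 0.65 TPM in matDKO and 2.56 TPM in WT, against medians of 15.3, 15.2 and 14.2 TPM. Leaving the 5 out, 0 of 5 members tested were called by limma in each comparison. The Hoxd10 difference of matDKO against WT was then 1.07, that of Hoxd8 was 0.43 in matTKO and -0.03 in matDKO against WT, that of Hoxd9 was 0.00 and -0.02, and that of Hoxb13 in matDKO against WT was 0.34, each without passing the threshold. Against WT, Hoxd8 and Hoxd10 in matTKO and Hoxb13 in both maternal groups changed sign with this choice, and none of them was called either way.

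Of the genes raised in PRC1-CD oocytes, Hoxd8 and Hoxd9 were above 1 TPM in every morula group, while Hoxd1, Hoxd13 and Hoxa10 did not reach a mean of 1 TPM in any morula group. Hoxa7 was listed at 0 in 6 of 10 matTKO, 7 of 10 matDKO and 9 of 10 WT morulae. Its highest value was 5.30 TPM in matTKO replicate 9, one of the libraries that stand apart, whose HoxA genes summed to 9.49 TPM. Of the 35 members below the filter the highest means were those of Hoxd3 in matTKO (0.921 TPM) and Hoxb7 in matDKO (0.713 TPM) and WT (0.759 TPM). Hoxb1, Hoxb3 and Hoxd12 were listed at 0 in all 30 morulae. Among the genes inside or near the clusters, Atp5g3 and Mtx2, both on the HoxD chromosome and both with mitochondrial functions, were lower in matDKO than in WT by log2 changes of -0.60 ± 0.15 and -0.77 ± 0.20 (limma adjusted p = 0.0374 and 0.0462), and 0 of 21 were called by limma in matTKO against WT or matDKO. Both calls were lost without the libraries that stand apart, at -0.42 for Atp5g3 (adjusted p = 0.0513) and -0.56 for Mtx2 (0.149), while Atp5g3 was then called lower in matTKO than in WT (-0.41, adjusted p = 0.0365). Meis1, among the TALE partners, averaged 1.42 TPM in matDKO against 0.384 TPM in WT (0.77 ± 0.21, adjusted p = 0.0490), and its difference without these libraries was 0.95 (adjusted p = 0.0164).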

How the data were processed

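RNA of 43 libraries was measured by RNA-seq from SMART-Seq v4 cDNA and Nextera XT libraries, per the labels' protocols. The submitters' processing notes name, with no role for each, the builds mm10 and GRCm38, featureCounts 1.6.0, RSEM 1.3.1, STAR 2.7.6 and 2.7.3, and Trim Galore 0.6.4. The authors deposited 2 oocyte tables in RPKM, which scales reads to transcript length and library size. The authors' morula table carries RPKM in its title too, but its libraries sum to nearly the same total, as TPM do, and the deposited values are treated as TPM with the planned test. Since low values form no steps of whole reads, depth is unknown and intervals for counting error are not given. Rows whose gene names had become dates were dropped, 27 in either set of oocytes and 0 in morulae.

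The test was limma 3.58.1 (R 4.3.3, eBayes with trend, two-sided) on log2(value + 1). It took in every gene whose mean reached 1 in any group, with the groups of a table fitted together, and called at a Benjamini-Hochberg adjusted p under 0.05 over all genes tested. Tests stayed within a table. A fold change on this scale understates low genes. An exact 0 may be a failed estimate, and a gene there is written as listed at 0. The script was tested on simulated data. Errors are SEs of limma changes. Alternatives were another pseudocount (0.1), another filter (0.5) or none, other scalings, a replicate block, fits of the compared groups alone, and fits without each oocyte library or without the morulae that stand apart, the last chosen after seeing the data.

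By the rule for named genes, members that were called or reached a mean of 1 are described, with values per library for the 6 with the largest oocyte changes, and other lists by counts and at most 6 called members. Hoxa7, Hoxc13 and Hoxd13 are given per library elsewhere for their levels, chosen after these were seen. The single values of 1 member are not reported here, and it stays in the counts and sums. The members, lists and rules were chosen with earlier results of these data known. Coordinates are GENCODE M21 on GRCm38 by symbol, and promoters are RefSeq on GRCm38.p6.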

Additional observations from a re-analysis of the deposited data

Results flagged for a closer look

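Among the 12 morula groups of 10 libraries tested over the 4 Hox genes above the filter, 2 had a library far from the other 9 by Dixon's test at the 95% level, where chance flags about 1 in 20 groups. Hoxd10 stood at 11.45 TPM in matDKO replicate 5, and the next library of that group was at 4.94 TPM. Hoxd8 stood at 20.75 TPM in matTKO replicate 2, and the next library of that group was at 10.66 TPM. Neither library is among the 5 that stand apart. The oocyte groups, with 2 or 3 libraries each, were too small for this test.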

How the results depend on the processing

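Most Hox results kept their side of the threshold: of 473 alternative values of single members, 442 did, 30 lost the call and 1 gained it. Of the called ones 0 changed sign. The 473 include members that were not called, among them those in morulae, and some of these changed sign. Counts of Hox genes called moved by over 1.5 times in these settings: from 9 to 15 in PRC1-CD with the filter at 0.5, and with no filter from 6 to 12 in DKO against WT and from 4 to 9 in TKO against DKO. In TKO against DKO the count also fell from 4 to 2 without DKO replicate 2. Leaving out 1 oocyte library at a time gave 6 to 7 called in DKO against WT, 5 to 6 in TKO against WT and 2 to 5 in TKO against DKO. In the PRC1 set it leaves 1 library in a group, so no count is read there. Genes at or above the level threshold numbered 16 in PRC1-CD, 7 in matDKO and 8 in matTKO at a threshold of 0.5, and 2 in WT morulae and 2 in matTKO at a threshold of 2. A pseudocount of 0.1 in place of 1 raised the log2 changes, for example to 4.96 for Hoxd1 in PRC1-CD, 4.89 in DKO and 5.82 in TKO. Whether replicate numbers pair the libraries is not settled. Correlations of same-numbered deviations were 0.088 in the PRC1 set, and those of other pairs were -0.088. With 2 libraries a group the deviations mirror each other, so these are 1 value with either sign. That 4 of 4 libraries matched their own number best follows from that sign, and nothing is read from it. In the knockout oocytes the same-numbered correlations ran from -0.048 to 0.109, and 2 of 9 libraries matched their own number best. In morulae they ran from -0.167 to 0.569, with a median of 0.071 against 0 for other pairs, and 11 of 30 did. A replicate block left the Hox counts at 9 in PRC1-CD, 6 in either knockout against WT, 4 in TKO against DKO, and 0, 0 and 0 in morulae. Over all genes it raised the calls from 227 to 607 in matDKO and from 74 to 183 in matTKO against WT morulae. In DKO against WT oocytes it lowered them from 3701 to 3364. With 2 or 3 libraries a group and unknown depth, levels near 0 are the least certain.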

Other observations

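Chromatin regulators of the Hox clusters were tested as a further list of 41 genes. In PRC1-CD against PRC1-WT 4 of 36 were higher and 0 lower, where 17.3% of all genes tested were higher: Bcor, a partner of PCGF1 (log2 change 2.23 ± 0.21), Pcgf5, a related PRC1 subunit (1.23 ± 0.19), Kmt2a (1.14 ± 0.15) and Cbx8 (0.89 ± 0.15), of which Kmt2a and Cbx8 passed the filter only through PRC1-CD, with a median over the list of -0.05 beside 0.04 for all genes. In DKO against WT 4 of 34 were higher and 4 lower, where 28.8% of all genes were called in either direction, Pcgf1 and Pcgf6 among the lower ones, and Bcor, which passed the filter only through the mutant groups, was higher by 2.36 ± 0.12. In TKO against WT 18 of 34 were higher and 4 lower, where 31.2% of all genes were higher and 51.3% were called, with a median of 0.35 beside 0.09 for all genes, and Bcor (1.91 ± 0.12) and Kdm2b, the CpG-binding partner of PCGF1 (1.19 ± 0.13), had the largest rises. In TKO against DKO 18 of 34 were higher and 6 lower, where 26.8% of all genes were higher and 21.8% lower, with a median of 0.38 beside 0.04 for all genes and with Phc2 (1.08 ± 0.14) leading. In morulae Pcgf1 and Yaf2 were lower in matDKO than in WT by log2 changes of -1.19 ± 0.21 and -1.34 ± 0.25 (limma adjusted p = 0.00184 and 0.00329), and 0 of 40 were called by limma in matTKO against WT or matDKO. Without the libraries that stand apart these changes in matDKO were -1.05 (adjusted p = 0.00423) and -1.36 (0.0137), and Pcgf1 was then called in matTKO against WT as well (limma log2 change -0.70, adjusted p = 0.0400).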
